A study of Rattus norvegicus with 6 samples.

Results

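The endothelin system was followed in whole lung of rats with monocrotaline-induced pulmonary hypertension through 6 genes: the ligands Edn1, Edn2 and Edn3, the receptors Ednra and Ednrb, and the converting enzyme Ece1. The members were taken by gene symbol, with 1 row per symbol, and all 6 were found among the 23802 genes of the deposited table. The study compared 3 control samples with 3 samples from rats given monocrotaline (MCT), a plant alkaloid that injures the lung endothelium after it is activated in the liver. All rats were wild-type male Sprague-Dawley animals of 200 to 250 g. The MCT group received a single dose of 60 mg/kg and the control group saline, and lung was collected 4 weeks later. The labels give the MCT injection as intraperitoneal in one place and subcutaneous in another, and saline as subcutaneous, so the route may have differed between the groups. The labels do not give an age, and nothing in them says that each sample was a separate animal. The p-values therefore measure only how these samples spread, and that spread may be technical.

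Endothelins are short vasoactive peptides cut from larger precursors. Proprotein convertases release an inactive big endothelin, and endothelin-converting enzyme 1, the product of Ece1, cleaves it to the active peptide. Endothelin-1 from vascular endothelium is one of the strongest known vasoconstrictors. It acts on the ETA receptor (Ednra) of smooth muscle, which drives contraction and growth, and on the ETB receptor (Ednrb), which on endothelium releases nitric oxide and prostacyclin and removes endothelin from the circulation. ETA binds endothelin-1 and endothelin-2 far better than endothelin-3, while ETB binds all of them alike. Drugs that block these receptors are used to treat pulmonary arterial hypertension.

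The promoter of Edn1 is shown because its short upstream stretch holds the textbook control sites of the gene, and because transcription factors that bind there are described further on. The promoter of Ece1, the most abundant member, is set beside it for its many CG dinucleotides. Both come from RefSeq (GRCr8, which is not the build named in the submitters' processing notes), which had an entry for 5 of the 6 members and none for Edn3. The Edn1 stretch lies at chr17:22666777-22666916 on the minus strand, 229 to 90 bases before the annotated start, and its capitals mark, in this order, a motif of GATA factors, a motif of AP-1 and a TATA box. The Ece1 stretch lies at chr5:155360891-155361030 on the plus strand, 140 to 1 bases before the annotated start, and its capitals mark CG dinucleotides.
Edn1: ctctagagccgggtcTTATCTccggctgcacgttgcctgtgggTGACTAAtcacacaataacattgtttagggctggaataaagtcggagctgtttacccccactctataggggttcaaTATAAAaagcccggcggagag
Ece1: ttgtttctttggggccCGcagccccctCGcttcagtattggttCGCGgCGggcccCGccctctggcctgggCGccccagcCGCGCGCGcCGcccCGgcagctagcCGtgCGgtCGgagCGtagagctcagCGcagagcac

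The GATA motif TTATCT and the AP-1 motif TGACTAA were searched on both strands and the TATA box TATAAA on the gene strand, in the 250 bases before each start, and the 3 motifs do not overlap in the Edn1 window. The GATA motif was present in 2759 of 27457 RefSeq promoter windows of this length, the AP-1 motif in 1.98% and the TATA box in 8.38%. Edn1 held each of them 1 time, and the windows of Edn2, Ednra, Ednrb and Ece1 held 0. The letters searched are those of the textbook control sites of Edn1, so its matches were fixed in advance. Only these exact letters were searched, so a 0 does not show that other forms of the motifs are absent. The TATAAA of Edn1 began 110 bases before the annotated start. The Ece1 window had 25 CG dinucleotides and 69.2% G and C, against 15 and 56.4% for Edn1, 14 and 69.6% for Edn2, 10 and 61.2% for Ednra, 10 and 53.2% for Ednrb, and a median of 6 and 52.0% over all windows. A match is a description of letters and does not show that a factor binds.

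Summed counts ranged from 13525912 to 17916134 per sample. Of 15250 genes tested with edgeR's quasi-likelihood test, 1221 were called higher in MCT lung and 779 lower at a Benjamini-Hochberg adjusted p under 0.05. With a single sample left out these counts ranged from 481 to 1394 and from 212 to 978. They were lowest when control 3 was left out, and were 562 and 273 for control 2, 712 and 343 for MCT 1, and 735 and 324 for MCT 3. Levels are given as deposited FPKM, a value scaled for depth and transcript length, where genes are compared with each other. They are given as CPM, counts scaled to a common depth with TMM normalization, where groups are compared. Samples are called control 1 to 3 and MCT 1 to 3 by their replicate number, and values per sample are listed in that order. Log2 fold changes are MCT over control.

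All but 1 of the members could be tested. Edn3 was called lower in MCT lung, and the other 4, Edn1, Ednra, Ednrb and Ece1, were not called. None of the 5 was called higher, also at an unadjusted p under 0.05 (0 members) and with DESeq2 and limma-voom (0 members each). Of all genes tested 13.1% were called, made up of 8.01% of all genes tested that were higher and 5.11% that were lower, the shares against which 1 call in 5 members is read. The groups did not overlap in CPM for Edn3 and Ece1, 2 of 5 members, against 35.4% of all genes tested, and both were lower in MCT lung, against 17.0% of all genes tested. The median log2 fold change of the 5 members was -0.28 and that of all genes tested -0.01.

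**Figure D1:**
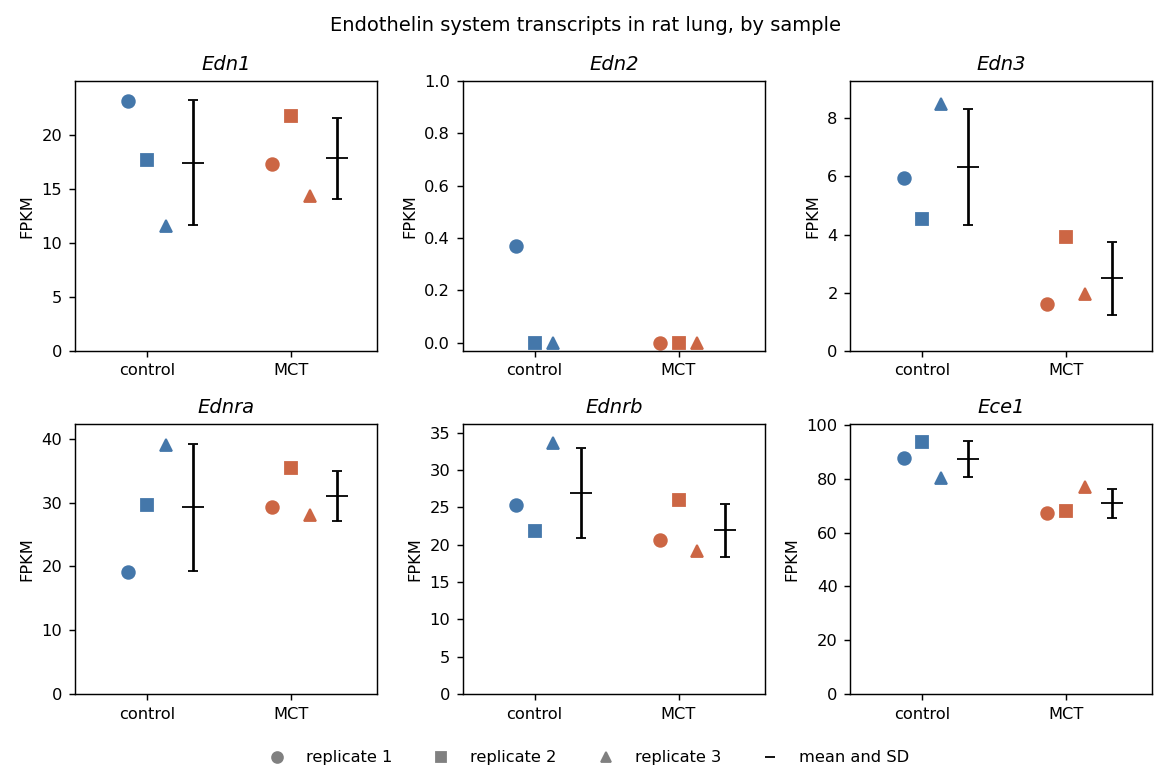
Deposited FPKM (y axis, linear, each panel with its own scale) of the 6 members in each of 3 control and 3 MCT lungs. Symbols mark replicates and the bars beside them the mean and SD of a group, left out for Edn2, which had counts in 1 sample. Edn3 and Ece1 are the members whose groups do not overlap.

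The members differed widely in level per length, and their order was nearly the same in every lung. Ece1 stood at the top with 67.5 to 93.9 FPKM over the 6 samples, above Ednra in 6 of 6. Ednra (19.1 to 39.0 FPKM) was above Ednrb (19.2 to 33.7 FPKM) in 5 of 6 samples, the exception being control 1, and these neighbours did not differ beyond their spread. Ednrb was above Edn1 (11.5 to 23.1 FPKM) in 6 of 6 samples, although their ranges over samples overlapped. Edn1 was above Edn3 (1.61 to 8.48 FPKM) in 6 of 6 samples with no overlap. Edn2 came last, at or near 0. By mean FPKM Ece1 lay above 92.6% of the genes tested, Ednra above 79.0%, Ednrb above 74.4%, Edn1 above 66.7% and Edn3 above 32.6%.

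Edn1 (ENSRNOG00000014361), the gene of endothelin-1, had nearly the same mean level in both groups. It stood at 32.7, 24.7 and 15.5 CPM in the control lungs and 23.9, 30.6 and 20.0 CPM in the MCT lungs. All 3 MCT values lay inside the control range, whose highest and lowest samples differed 2.12-fold. The means were 24.3 ± 8.64 CPM in control and 24.8 ± 5.37 CPM in MCT lung (SD, n = 3). The log2 fold change was 0.04 (SE 0.27, 95% interval -0.58 to 0.65, adjusted p = 0.946, edgeR), so these samples leave room for changes between 0.669-fold and 1.57-fold. These values rest on 286 to 517 counts per sample. The sign turned when control 3 (-0.20) or MCT 2 (-0.14) was left out.

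Edn2 (ENSRNOG00000009390), the gene of endothelin-2, was hardly detected. It had 3 counts in control 1, or 0.37 FPKM, and 0 in every other sample. It did not pass the filter on low counts and was not tested. A count of 0 in the MCT group allows up to 3 counts over its 46097904, a level of 0.0651 CPM, and the 3 counts of the control group over its 46778700 are a level of 0.0641 CPM, so no fold is given. The limit covers counting error only.

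Edn3 (ENSRNOG00000007477), the gene of endothelin-3, fell in MCT lung. Endothelin-3 acts mainly through ETB and is best known for guiding neural crest cells, from which melanocytes and enteric neurons form. Its level was 11.6, 8.71 and 15.6 CPM in the control lungs and 3.05, 7.59 and 3.71 CPM in the MCT lungs. Every MCT sample lay below every control, but MCT 2 came close to the lowest control. The means were 11.98 ± 3.48 CPM in control and 4.78 ± 2.45 CPM in MCT lung (SD, n = 3). The gene fell by 1.32 on the log2 scale (SE 0.37, adjusted p = 0.0493, edgeR), a level 2.49-fold lower with a 95% interval of 1.39 to 4.46.

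The call of Edn3 was narrow and rested on the whole set of samples. Refitted with edgeR on 5 samples, the adjusted p was 0.0914 after control 1 was left out, 0.0747 after control 2 and 0.167 after control 3. After MCT 1 or MCT 3 was left out it was 0.125 and 0.14, so 5 of the 6 refits lost the call. It stayed without MCT 2, the highest MCT sample (log2 fold change -1.83, adjusted p = 0.00915, edgeR). In DESeq2 it was called with more room (adjusted p = 0.0047). The values rest on 117 to 290 counts in each control and 45 to 128 in each MCT lung.

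The receptor genes were not called. Ednra (ENSRNOG00000012721), which encodes ETA, stood at 89.4, 136 and 172 CPM in the control lungs and 133, 165 and 129 CPM in the MCT lungs. The 3 MCT samples lay within the control range, from control 1, the lowest of all, to control 3, the highest. The means were 133 ± 41.5 and 142 ± 19.6 CPM (SD, n = 3), with a log2 fold change of 0.10 (SE 0.22, 95% interval -0.41 to 0.61, adjusted p = 0.805, edgeR). Leaving out control 1 (-0.11) or MCT 2 (-0.02) turned the sign.

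Ednrb (ENSRNOG00000010997), which encodes ETB, stood at 51.6, 43.9 and 64.9 CPM in the control lungs and 40.9, 52.5 and 38.4 CPM in the MCT lungs. MCT 1 and MCT 3 lay below every control and MCT 2 lay inside the control range. The means were 53.4 ± 10.6 and 43.9 ± 7.54 CPM (SD, n = 3). The log2 fold change was -0.28 (SE 0.18, 95% interval -0.69 to 0.13, adjusted p = 0.33, edgeR), so a level up to 1.61-fold lower is within the interval. The value ranged from -0.43 to -0.12 with a single sample left out and was lowest without MCT 2.

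Ece1 (ENSRNOG00000014241) was the least variable member. It stood at 403, 425 and 349 CPM in the control lungs and 302, 309 and 348 CPM in the MCT lungs. Every MCT sample lay below every control, though MCT 3 and control 3 were nearly equal. The means were 393 ± 39.5 and 320 ± 24.9 CPM (SD, n = 3). The log2 fold change was -0.30 (SE 0.13, 95% interval -0.60 to 0.01, adjusted p = 0.174, edgeR), so the gene did not pass. Across the alternatives tried the adjusted p ranged from 0.116 to 0.38.

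**Figure D2:**
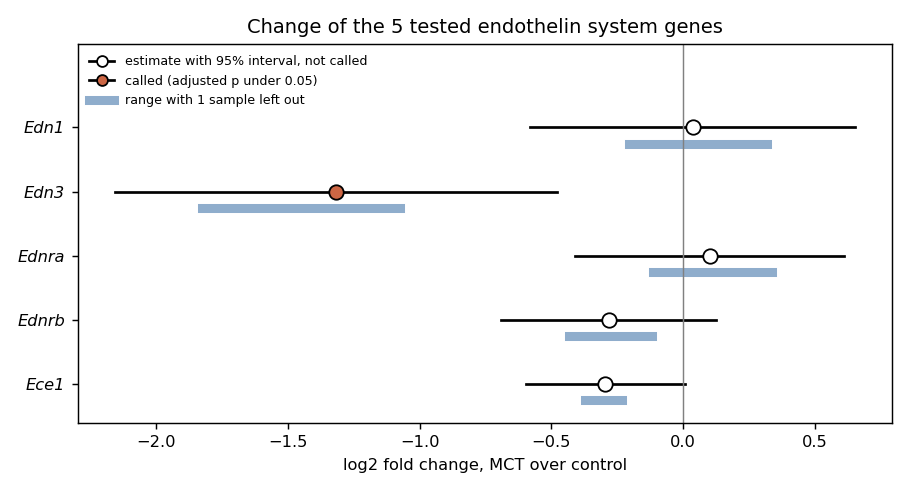
Log2 fold change of MCT over control (x axis) for the 5 members tested. Points with black lines are the edgeR estimates with 95% intervals, the filled point is the member called at an adjusted p under 0.05, and blue bars span the estimates with a single sample left out. Edn3 at -1.32 stands apart from the other 4, which lie between -0.30 and 0.10.

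Most members varied more between samples of a group than the median gene, though the genes compared were not matched to them in level. The coefficient of variation among controls was 35.6% for Edn1, 31.3% for Ednra, 29.0% for Edn3 and 19.9% for Ednrb, against 10.1% for Ece1 and a median of 12.02% over 11931 genes with a mean of at least 5 CPM. Among MCT samples it was 51.2% for Edn3, 21.6% for Edn1, 17.2% for Ednrb, 13.8% for Ednra and 7.79% for Ece1, against a median of 12.5%. Control replicate 3 held the highest Edn3, Ednra and Ednrb of all 6 samples and the lowest Edn1. MCT 2 held the highest Edn1, Edn3, Ednra and Ednrb of the MCT group.

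The balance between the receptors, and that between the ligands, was compared within each sample, where depth cancels. The ratio of Ednrb to Ednra FPKM was 1.33, 0.736 and 0.862 in the control lungs and 0.703, 0.733 and 0.682 in the MCT lungs. Every MCT ratio lay below every control ratio, though control 2 and MCT 2 were almost the same. The mean log2 ratio was -0.08 ± 0.44 in control and -0.50 ± 0.05 in MCT lung (SD, n = 3), a difference of -0.42 (exact permutation test, two-sided, p = 0.1, the smallest that 3 against 3 samples can give). Without control 1 the difference was -0.18, so much of its size came from that sample.

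Edn1 made up 78.5, 79.5 and 57.6% of the summed FPKM of the 3 ligands in the control lungs and 91.5, 84.7 and 88.1% in the MCT lungs. Every MCT share lay above every control share. The means were 71.9 ± 12.4% and 88.1 ± 3.37% (SD, n = 3), a difference of 16.2 percentage points (exact permutation test, two-sided, p = 0.1, again the smallest possible, and 0.1 for both balances after Benjamini-Hochberg adjustment over the 2 tests). Without control 3 the difference was 9.08 points. The mean Edn1 level was nearly equal in both groups, and the higher mean share goes with the lower mean Edn3. In control 3, which had the lowest share, Edn1 was the lowest of all 6 samples (11.5 FPKM) and Edn3 the highest (8.48 FPKM). The size of the difference thus also depends on the spread of Edn1.

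**Figure D3:**
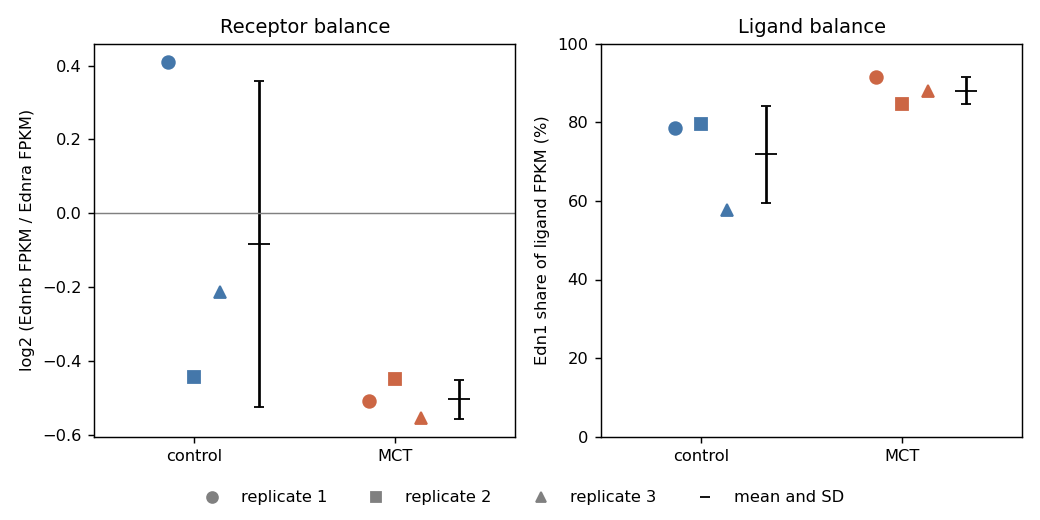
Left, log2 ratio of Ednrb to Ednra FPKM in each sample; right, share of Edn1 in the summed FPKM of Edn1, Edn2 and Edn3 (%). Symbols mark replicates and bars the mean and SD. In both panels the 3 MCT samples lie to one side of the 3 controls and closer together than the controls do.

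Next to the members stand the proteases that make or break down endothelin, listed here with a relative of Ece1, Ecel1. Of these 12 genes 10 were tested, and 5 were called higher and 1 lower, with a median log2 fold change of 0.52. Without Ecel1, which passed the filter on low counts through the MCT samples alone, 4 of 9 rose, 1 fell and 4 did not pass, with a median of 0.25. Over all genes 13.1% were called, with a median of -0.01. The list was chosen with earlier results of these data known, so its share is a description only. Alternative routes from big endothelin to active peptides use chymase and gelatinase A. Cma1, the gene of mast cell chymase, stood at 4.46, 0.894 and 1.51 CPM in the control lungs and 241, 120 and 224 CPM in the MCT lungs, and rose by 6.41 (log2, SE 0.52, adjusted p = 0.000654, edgeR). Mmp2, the gene of gelatinase A, rose from 183 ± 19.8 to 462 ± 82.5 CPM (SD, n = 3; adjusted p = 0.00267, edgeR). Per length, Cma1 stood at 2.31 ± 1.88 FPKM in control and 199 ± 67.8 FPKM in MCT lung (SD, n = 3), and Mmp2 at 59.7 ± 5.43 and 150 ± 26.2 FPKM. Ece1, the main converting enzyme, stood at 87.4 ± 6.77 and 70.9 ± 5.40 FPKM. Whether the product of rat Cma1 cuts big endothelin was not tested, so these levels do not rank converting activity.

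Ecel1 is not known to cut big endothelin. It had 1, 1 and 3 counts in the control lungs and 67, 46 and 170 in the MCT lungs, and its level in MCT lung did not exceed 1.62 FPKM. With so few control counts its fitted fold change depends on the settings, and on log2(FPKM + 1) the difference was 0.83 (adjusted p = 0.0489, limma). Ctsa, the gene of a lysosomal carboxypeptidase that inactivates endothelin, rose 1.71-fold (adjusted p = 0.0133, edgeR). Leaving out control 3 ended this call (adjusted p = 0.0629, edgeR). Pcsk5, a proprotein convertase gene, rose by 0.80, and Mme, the gene of neprilysin, which degrades endothelin, fell by 0.75 (log2). Pcsk5 and Mme fall outside the naming rule and were picked with their values in view.

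Mme stood at 80.6, 56.8 and 68.3 CPM in the control lungs and 47.9, 41.4 and 32.8 CPM in the MCT lungs, without overlap (adjusted p = 0.0286, edgeR). Mme lost its call when control 1, control 3 or MCT 3 was left out (adjusted p = 0.0743 to 0.0912), and Pcsk5 when control 2 or 3 was (0.0538 and 0.0578). Without control 3, 3 genes of the protease list were called in place of 6, and both counts include Ecel1. Ece2, a second converting enzyme, had 36 to 81 counts per sample and a log2 fold change of 0.20 (adjusted p = 0.761, edgeR). Furin, the convertase best known for cutting the endothelin-1 precursor, had 0.12 (adjusted p = 0.559, edgeR). Ece2 and Furin, too, fall outside the naming rule.

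The genes that couple the receptors to calcium release were called at about the share of all genes. Both receptors act through Gq-class G proteins, phospholipase C-beta, inositol trisphosphate receptors and protein kinase C. Of 24 tested genes of this list, 2 rose, 2 fell and 20 did not pass, with a median of -0.04. The called share of the list was thus close to the 13.1% of all genes tested. Plcb4, a phospholipase C-beta gene, stood at 140, 134 and 113 CPM in the control lungs and 61.8, 87.3 and 62.8 CPM in the MCT lungs, and fell by 0.87 (log2, SE 0.16, adjusted p = 0.0125, edgeR). Prkce, a protein kinase C gene, fell by 1.17 (adjusted p = 0.0267). Plcb2, a form found mainly in blood cells, rose by 0.67 (adjusted p = 0.027). Cacna1c, the pore subunit of the smooth muscle calcium channel and a gene outside the naming rule, rose by 0.49 (adjusted p = 0.0316). Leaving out control 2 or MCT 3 ended the call of Plcb4 (adjusted p = 0.0535 and 0.0536). A call was also lost for Prkce with any control or MCT 3 left out (adjusted p = 0.0527 to 0.101), for Plcb2 with control 1, control 3, MCT 1 or MCT 3 left out (0.0566 to 0.09), and for Cacna1c with any sample but MCT 2 left out (0.0654 to 0.116).

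The G protein genes Gnaq and Gna11 had log2 fold changes of -0.32 (adjusted p = 0.271) and -0.20 (adjusted p = 0.445), and Rhoa, the most abundant member of the list, 0.13 (adjusted p = 0.567, edgeR), the former pair outside the rule. The calls of this list depended on the samples held: 1 gene was called without control 1, 2 or 3, 2 without MCT 1 and 0 without MCT 3.

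Regulators that end receptor signalling were called in both directions. Among the 10 tested, 2 rose and 1 fell, 7 did not pass, and the median was -0.06, against 13.1% called and a median of -0.01 over all genes. Rgs3, whose product speeds the shut-off of Gq-class proteins, stood at 99.7, 125 and 103 CPM in the control lungs and 65.0, 65.3 and 66.5 CPM in the MCT lungs, and fell by 0.73 (log2, SE 0.12, adjusted p = 0.0078, edgeR). Rgs16, of the same class, rose by 1.76 from 3.33 ± 0.383 CPM to 11.3 ± 4.86 CPM (SD, n = 3; adjusted p = 0.0148). Arrb2, a beta-arrestin gene, rose by 0.61 (adjusted p = 0.0207), and Rgs2, the most abundant of the list per length, had 0.30 (adjusted p = 0.505). Rgs16 lost its call when control 2 or 3 was left out (adjusted p = 0.0592 and 0.067), and Arrb2 when control 1, control 3, MCT 1 or MCT 3 was (0.0552 to 0.0897). Without control 3, 1 gene of the list was called.

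Several transcription factors of the Edn1 promoter were lower in MCT lung, while Edn1 itself had a log2 fold change of 0.04. Of 14 tested, 1 rose, 4 fell and 9 did not pass, with a median of -0.12, while over all genes 8.01% were called higher and 5.11% lower and the median was -0.01. The promoter stretch printed above holds a GATA and an AP-1 motif. Gata2, the endothelial GATA factor, stood at 280, 229 and 158 CPM in the control lungs and 108, 127 and 120 CPM in the MCT lungs, and fell by 0.91 (log2, adjusted p = 0.0213, edgeR). Of the AP-1 subunits, Fos rose by 1.36 (adjusted p = 0.0268) to 14.7 ± 4.55 CPM (SD, n = 3), while Jun, at 194 to 269 CPM over all samples, had 0.25 (adjusted p = 0.205). Gata2, Fos and Jun lie outside the rule.

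Klf2, a flow-responsive factor that represses Edn1, fell by 0.97 from 110 ± 19.2 to 56.5 ± 7.62 CPM (SD, n = 3; adjusted p = 0.0079, edgeR). Epas1, a hypoxia-inducible factor abundant in lung endothelium, fell by 1.08 from 3247 ± 284 to 1532 ± 354 CPM (SD, n = 3; adjusted p = 0.0137), and Foxo1 fell by 0.74 (adjusted p = 0.0207). The list thus holds repressors as well as activators among its lower genes. Leaving out control 2 ended the call of Epas1 (adjusted p = 0.0531). Gata2 lost its call when control 2, MCT 1 or MCT 3 was left out (adjusted p = 0.0669 to 0.0732), Foxo1 when any sample but control 1 and MCT 2 was (0.055 to 0.0853), and Fos when any sample but control 3 and MCT 2 was (0.065 to 0.0845). Without control 2, 1 gene of the list was called, 3 without MCT 1 and 2 without MCT 3.

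Of 7 tested genes for the nitric oxide and prostacyclin arm that ETB releases, 2 rose, 0 fell and 5 did not pass, with a median of 0.06. Over all genes 13.1% were called and 8.01% were higher. At an unadjusted p under 0.05, 3 were higher and 1 was lower, DESeq2 called 3 higher and 0 lower, and limma-voom called 3 higher and 0 lower. The lower gene was Ptgir, of the prostacyclin receptor, which falls outside the naming rule (log2 fold change -0.54, adjusted p = 0.151, edgeR). Ptgis, the prostacyclin synthase gene, was not matched, so that step was not measured. Ptgs1, the gene of cyclooxygenase 1, stood at 49.4, 45.6 and 35.8 CPM in the control lungs and 74.5, 87.0 and 85.7 CPM in the MCT lungs, and rose by 0.92 (log2, SE 0.15, adjusted p = 0.00696, edgeR). Ptgs2, of cyclooxygenase 2, rose by 1.18 (adjusted p = 0.0312). Leaving out any sample but MCT 2 ended this call (adjusted p = 0.0703 to 0.109). Nos3, the endothelial nitric oxide synthase gene, stood at 21.8 ± 7.22 in control and 35.6 ± 2.38 CPM in MCT lung (SD, n = 3) without overlap, but did not pass (log2 fold change 0.71, adjusted p = 0.0664, edgeR). It was called once control 1 was left out (1.02, adjusted p = 0.0125, edgeR), and also by DESeq2 at 0.0223 and by limma-voom at 0.047. Gucy1a1, a subunit of the nitric oxide receptor, had -0.29 (adjusted p = 0.378), and -0.55 once MCT 2 was left out (adjusted p = 0.0385, edgeR). Without control 2 or 3, or MCT 1 or 3, 1 gene of this list was called.

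**Figure D4:**
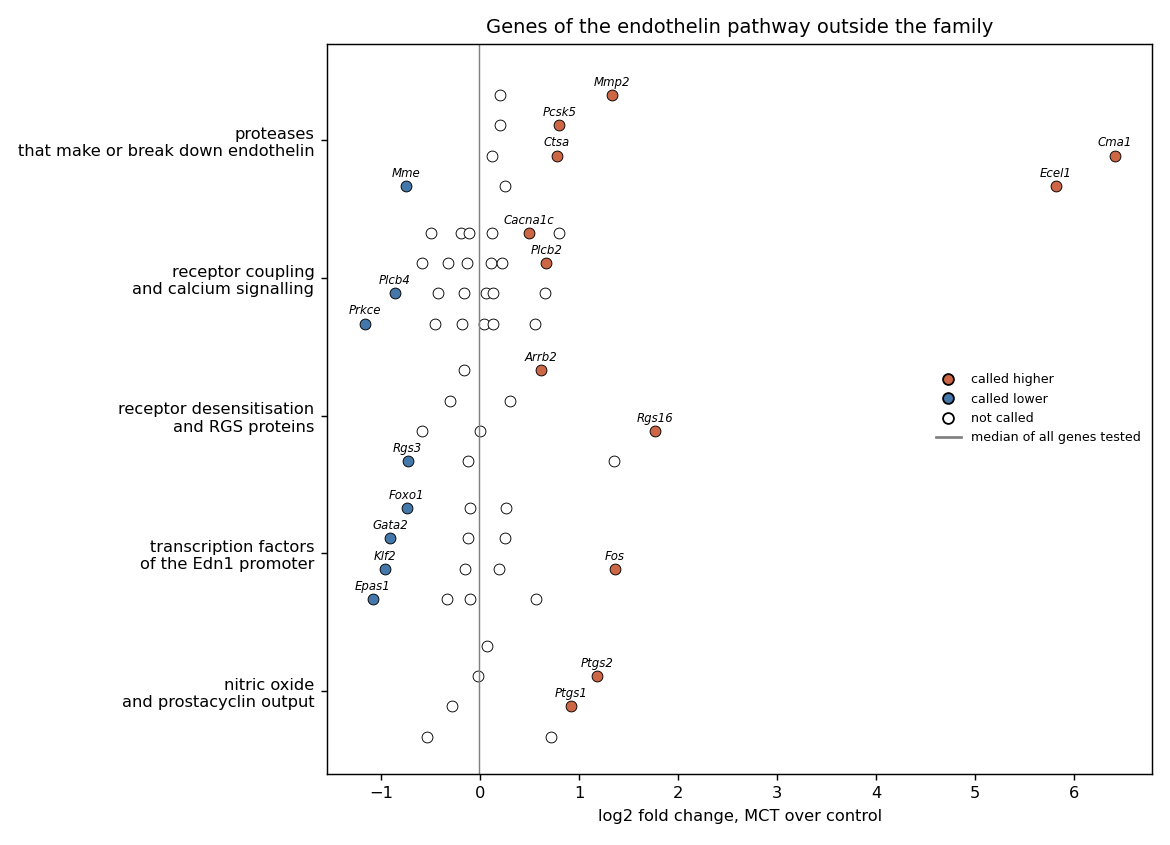
Log2 fold change of MCT over control (x axis) for each tested gene of 5 lists around the endothelin members, 1 row of points per list with vertical scatter for legibility. Filled points were called higher or lower at an adjusted p under 0.05 (edgeR) and are named, and the grey line is the median of all genes tested. Cma1 at 6.41 lies far from the rest, as does Ecel1 at 5.81, whose value rests on 1 to 3 counts per control.

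In bulk lung, fewer cells of a type and less RNA per cell cannot be told apart, so markers of the cells that make or sense endothelin were measured beside the members. Lung ETB is a known marker of the aerocyte, a capillary cell of the gas exchange surface. The summed FPKM of 7 aerocyte markers was 430 to 450 in controls and 367 to 659 in MCT samples. Of the 7, 1 was called higher and 0 lower, against 8.01% and 5.11% of all genes tested. The aerocyte sum was highest in MCT 2, the MCT sample with the highest Ednrb. So, within the MCT group, were the general capillary, pan-endothelial, lymphatic, pericyte and fibroblast sums. Among controls the aerocyte sum was lowest in control 3, the control with the highest Ednrb. At an unadjusted p under 0.05, 2 aerocyte markers were higher and 0 lower, and DESeq2 and limma-voom each called 1 higher and 0 lower. With control 2 or MCT 3 left out 0 were called, and 2 with MCT 2 left out. The 8 general capillary markers summed to 743 to 862 in controls and 284 to 423 in MCT samples. Of these markers 6 were called lower, against 5.11% of all genes. Plvap, their most abundant, fell by 1.45 (log2, adjusted p = 0.0119, edgeR). The 9 pan-endothelial markers in the table summed to 1301 to 1576 and 932 to 1444, with 3 lower, against 5.11% of all genes. Of these, 1 was called when any sample but MCT 2 was left out. The 8 arterial and venous markers summed to 184 to 202 and 123 to 132, with 3 lower, against 5.11% of all genes. The part of these cells in the Ednrb, Edn1 and Ece1 values was not tested.

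Cells that carry ETA were followed in the same way. The 9 smooth muscle markers summed to 556 to 634 FPKM in controls and 718 to 1104 in MCT samples without overlap, and 4 of 9 were called higher, against 8.01% of all genes, while Ednra lay in the control range in every MCT sample. DESeq2 called 6 of these markers and limma-voom 3. With control 2, control 3 or MCT 3 left out 2 were called, and 6 with MCT 2 left out. MCT 2 had the lowest smooth muscle sum of the MCT group and its highest Ednra. It also had the highest pericyte and fibroblast sums of that group. The 7 pericyte markers summed to 126 to 138 and 127 to 161 FPKM, and 0 of 7 were called by edgeR, DESeq2 or limma-voom or had an unadjusted p under 0.05, while 1 was called with control 1 left out. The 8 fibroblast markers summed to 382 to 403 and 421 to 447 FPKM. Of these, 1 was called higher and 1 lower, against 8.01% and 5.11% of all genes, and 4 were called with MCT 2 left out. The part of these cells in the Ednra values was not tested.

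Other cell types moved further. Their calls are read against 8.01% of all genes tested called higher and 5.11% called lower. The 5 mast cell markers, led by Cpa3, summed to 12.5 to 16.2 FPKM in controls and 153 to 660 FPKM in MCT samples, and all 5 were called higher, beside the rise of the mast cell chymase gene Cma1. The sum was highest in MCT 1 and lowest in MCT 2, as was the level of Cma1. The 5 lymphatic endothelial markers summed to 131 to 154 and 727 to 824 FPKM, with 4 called higher and 1 lower. The rise of this sum lay in Ccl21, at 76.8 ± 14.5 FPKM in control and 716 ± 48.0 FPKM in MCT lung (SD, n = 3). The 6 macrophage markers summed to 118 to 128 and 216 to 328 FPKM, with 3 of 5 tested called higher. The 4 mesothelial markers, 3 of them called lower, summed to 37.1 to 48.4 FPKM in controls and 6.83 to 10.7 FPKM in MCT samples. These sums parted the groups, as Edn3 did and as 35.4% of all genes tested did in CPM, so parting marks no likeness to Edn3. The mast cell, lymphatic and macrophage sums were higher in MCT lung, not lower. The smooth muscle and fibroblast sums, both higher, parted the groups too. So did the general capillary, the arterial and venous and the alveolar epithelial sums, each lower in MCT lung. The aerocyte, pan-endothelial, pericyte, airway epithelial and cardiac sums overlapped. The part of any of these cells in the Edn3 value was not tested.

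The 6 cardiac muscle markers, which can enter lung samples with the pulmonary veins, summed to 6.11 to 14.9 and 4.97 to 8.25 FPKM, and Nppa had 0 counts in every sample. The cardiac sum was highest in control 3, the control with the highest Edn3, Ednra and Ednrb. Among controls, control 3 also held the highest general capillary, smooth muscle, fibroblast, mesothelial and, narrowly, pericyte sums. The part of any of these cells in its values was not tested. Airway epithelial markers summed to 15033 to 24729 and 11590 to 21940 FPKM and overlapped between the groups, and the 8 alveolar epithelial markers that define lung summed to 18758 to 20745 and 9278 to 16365 FPKM.

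**Figure D5:**
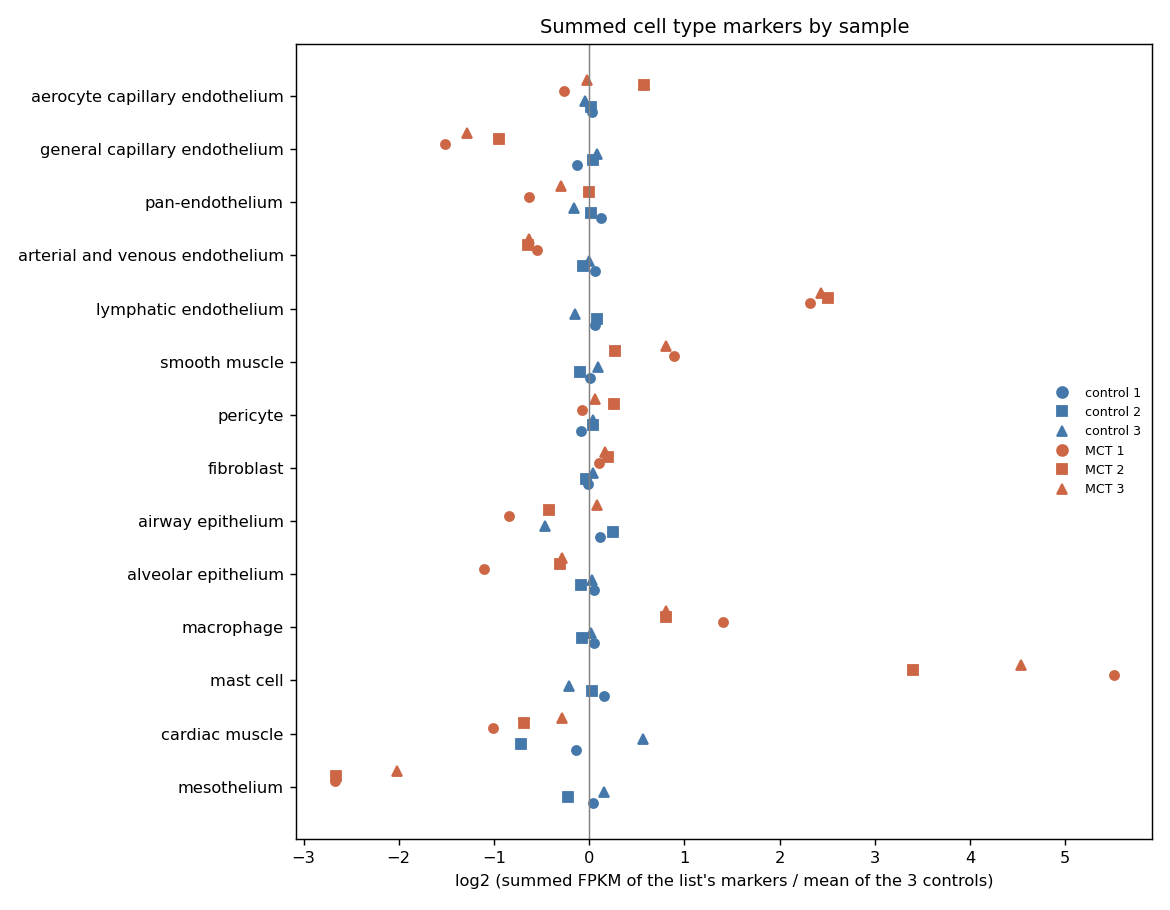
Summed FPKM of the markers of each of 14 cell types, as log2 of the ratio to the mean of the 3 controls (x axis), for each control (blue) and MCT (orange) sample. Symbols mark replicates. Mast cell, lymphatic and macrophage sums lie above the controls in every MCT sample, general capillary and mesothelial sums below, and aerocyte and pericyte sums on both sides.

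The genes whose pattern over the 6 samples was most like that of each member were found among 11150 named genes with a mean of at least 5 CPM, by the root-mean-square difference of log2 CPM after each gene was centred on its own mean. For Edn3 they were Phyhipl, at a difference of 0.148, and Lrrn3, at 0.159, where Edn3 itself deviated from its mean by 0.824 on the same measure. Phyhipl stood at 13.7 to 23.0 CPM in controls and 5.42 to 13.51 CPM in MCT lung, and Lrrn3 at 37.1 to 53.7 and 11.5 to 34.9 CPM. Neither passed (adjusted p = 0.0617 and 0.0774, edgeR). DESeq2 called both (0.00961 and 0.00929), and so did edgeR once MCT 2 was left out (0.0114 and 0.00142). Lrrn3 was also called with limma-voom (adjusted p = 0.0419). For Edn1 the nearest were Hus1 (0.104) and P4ha2 (0.109), for Ednra Nsun4 (0.0714) and Plk2 (0.0883), for Ednrb Tcaim (0.0633) and the gene model AABR07031193.1 (0.0748), and for Ece1 Mtm1 (0.0456) and Acvr1b (0.0501). None of these 8 was called by edgeR or under any alternative run. With 6 samples and this many candidates some gene is always close, so the values describe these libraries only.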

How the data were processed

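PolyA RNA from 6 whole lung samples was sequenced. Each gene has an estimated count and an FPKM per sample in the deposited table, per the file headers. Alignment tools named in the submitters' processing notes are TopHat2 2.0.3.12 and Bowtie2, with Rnor_6.0 as the build. The counting tool, the annotation and the strand setting were not given in the sources used here. The authors' estimated counts were rounded to whole numbers; between 90.7% and 91.5% of those above 0 were already whole. The FPKM values are the authors' own. Genomic positions in the files' build were not used here.

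The main test was edgeR 4.0.16 (R 4.3.3) with TMM normalization, low counts removed by filterByExpr (min.count 10, min.total.count 15), and no covariates, on all 6 samples. SEs are the log2 fold change over the square root of F. Alternatives were DESeq2 1.42.0, limma-voom and limma on log2(FPKM + 1) and log2(FPKM + 0.1) (limma 3.58.1), median-of-ratios size factors, no filter, a minimum count of 30, summed rows of a symbol, a replicate block and each sample left out. The edgeR step was tested on simulated data. The sources name no molecular identifiers, and 117 to 6468 counts lay behind each tested member in controls.

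The members and lists were chosen with earlier results of these data known. The genes named are the members, the 3 of each of 5 pathway lists with the smallest p and its most abundant gene, the most abundant gene of each of 14 marker lists, and the 2 nearest patterns of each tested member. Of 165 list symbols 163 were in the table and 155 tested. Ptgis and Robo4 were not matched. Markers named by the rule and not described in the report are Emcn, Cldn5, Efnb2, Tagln, Higd1b, Tcf21, Scgb1a1, Sftpc, Csf1r, Tnni3 and Msln. A marker list besides these 14 is not reported here.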

Additional observations from a re-analysis of the deposited data

How the results depend on the processing

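The direction of Edn3, Ednrb and Ece1 held under each of the 15 alternatives, and that of both balances under the 9 run for them. Edn1 and Ednra turned sign with a sample left out, over ranges of -0.20 to 0.32 and -0.11 to 0.34 (log2). Edn3 ranged from -1.83 to -1.08 with a sample left out, and its call ended with a minimum count of 30 (-1.32, adjusted p = 0.0503, edgeR), where fewer genes were tested. With a sample left out, 0 to 1 members were called lower, and 0 with that filter. The receptor difference ranged from -0.60 to -0.18 and the ligand share difference from 9.08 to 20.0 points.

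With a sample left out, 481 to 1394 genes were higher and 212 to 978 lower, and 1182 were lower with DESeq2. Called genes numbered 3 to 6 among proteases, Ecel1 included, 0 to 6 in receptor coupling and 1 to 3 in desensitisation. They numbered 1 to 5 among transcription factors and 1 to 3 in the nitric oxide list, which had 1 on either FPKM scale. Signs also turned for Rgs2 (-0.032 to 0.53), Tcf21 (-0.067 to 0.30), Hus1 (-0.11 to 0.36), P4ha2 (-0.33 to 0.19), Nsun4 (-0.18 to 0.27), Plk2 (-0.14 to 0.26) and AABR07031193.1 (-0.34 to 0.026). The cause was not tested.

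The labels share replicate numbers between the groups, but same-numbered samples did not deviate together (correlations of -0.058, -0.07 and -0.002), and they share only a number. With a replicate block 917 genes were higher and 546 lower, 0 members were called lower (Edn3 at -1.39, adjusted p = 0.0799, edgeR), 2 receptor coupling genes and 1 gene of the nitric oxide list were called, and the balances had an exact sign-flip p of 0.25, the smallest for 3 pairs.

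Edn2 has no value under these alternatives because its counts are too low to test.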

Other observations

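Further rows of the deposited table carry endothelin in their description and were looked at after the values were seen. LOC102551435, described there as a gene like endothelin-converting enzyme 2, had 31, 15 and 32 counts in control replicates 1 to 3 and 59, 58 and 63 counts in MCT replicates 1 to 3, and a log2 fold change of 1.26 (SE 0.32, adjusted p = 0.0353, edgeR). The table annotates it as a methyltransferase and with no protease function. It may share reads with Ece2, whose own log2 fold change was 0.20, so the split between them is uncertain. Dear, described as a receptor for endothelin 1 and angiotensin II, had 0 to 3 counts per sample and was not tested.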
